A study of Mus musculus with 12 samples.

Results

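The genes described here are the Wnt ligands, their receptors, secreted modulators and the intracellular parts of the pathway. They were taken by name as every gene whose symbol starts with Wnt, Fzd, Sfrp, Dkk, Axin or Tcf7, with Lrp5, Lrp6, Ctnnb1, Apc, Lef1, Gsk3b, Dvl1, Dvl2 and Dvl3 added. The rule found 46 of 18879 genes: 13 ligands, 12 receptors or co-receptors, 8 secreted modulators, 8 cytoplasmic transducers, 4 nuclear factors and 1 antisense transcript (Fzd10os). No expression value was used to choose them.

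Prefrontal cortices of newborn mice (postnatal day 0), labelled C57BL/6J while the study's methods name C57BL/6N, were profiled by single-cell RNA sequencing in homozygous (HOM), heterozygous (HET) and wild-type (WT) animals for a Myt1l frameshift allele. Genome editing of zygotes removed 7 bp from exon 6 of this neuronal transcription factor gene, so that the reading frame stops at residue 78. Cells of 2 animals per genotype were fixed, pooled and captured as 1 droplet library read from the 5′ end. That library was sequenced in 4 runs, which gives 12 samples in all. Each genotype is therefore 1 sample, no difference between genotypes can be set against variation between animals, and no test was run. Cell type names are those of the deposited cell table.

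Wnt proteins are secreted lipid-modified ligands that bind Frizzled receptors (Fzd) with the co-receptors Lrp5 and Lrp6. Without a ligand, Apc, Axin and Gsk3b mark β-catenin (Ctnnb1) for destruction, and with it Dishevelled proteins (Dvl) block that complex so that β-catenin enters the nucleus and works with Lef1 and the Tcf7 factors. In the developing forebrain the pathway is known for roles in progenitor growth, axon guidance and the formation of the blood-brain barrier.

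The libraries held 13688 HOM, 12072 HET and 10503 WT cells of 21 cell types, with a median of 1330, 1099 and 1045 molecules per cell. A level below is the summed depth-corrected value of a gene per 1000000 of all genes in the cells of that type and library. The sex of the animals differed with genotype, since Xist was found in 1 HOM, 2 HET and 2121 WT cells and a Y-linked transcript in 2086, 1865 and 603. Sex therefore moved with genotype in comparisons with WT, except where cells with a Y-linked transcript were taken alone, while HOM against HET does not use the WT library. Myt1l RNA itself was at 710 in HOM, 450 in HET and 370 in WT. The study reports from its RNA sequencing that the transcript of this allele is not decayed, so the Myt1l level does not check the genotype names. A legend of the study gives these cell numbers to the genotypes in a different order: 10503 to homozygous, 13688 to heterozygous and 12072 to wild-type animals. By that order the library named WT here would be the homozygous one, and the comparisons below would carry other names. The names used here rest on the deposited cell table. Cell barcodes shared between libraries numbered 648.

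The members with the largest summed values were 3 cytoplasmic genes, Gsk3b, Apc and Ctnnb1, at 15880, 15595 and 13395 over all cells. Next came the secreted modulator Sfrp1 (4904), the receptor Fzd3 (3749) and the ligand Wnt7b (3511). Altogether 20 members reached a summed value of 300, and 12 stayed under 50: Fzd10os, Fzd5, Wnt4, Wnt6, Fzd10, Wnt2, Wnt11, Wnt9a, Dkk1, Wnt10a, Wnt2b and Wnt16. The 13 ligands summed to 5288, most of it Wnt7b. All members together stood at 1575 in HOM, 1562 in HET and 1873 in WT. These sums pool all cell types, whose cell numbers differed between libraries. Astrocytes (immature) 1 [10-P], for example, held 181 HOM, 251 HET and 409 WT cells, and the part of this in the sums was not tested.

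Members with enough signal mostly had the same highest cell type in separate libraries. Of 23 members with a summed value of at least 50 in their highest type, among 18 types with at least 100 cells in every library, 14 had the same highest type in 3 of 3 libraries and 7 in 2. For 11 of them the lowest library there stood above every other type in any library. These counts were not made over all genes, and members were kept by their value in that same type. They therefore describe these members only and do not show a trait of the pathway. Endothelial1 [17-P] was the highest type of 5 members, Astrocytes (immature) 1 [10-P] of 4, and SVZ1 (migrating) [2-P] and Striatal inh2 [7-P] of 3 each.

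**Figure D1:**
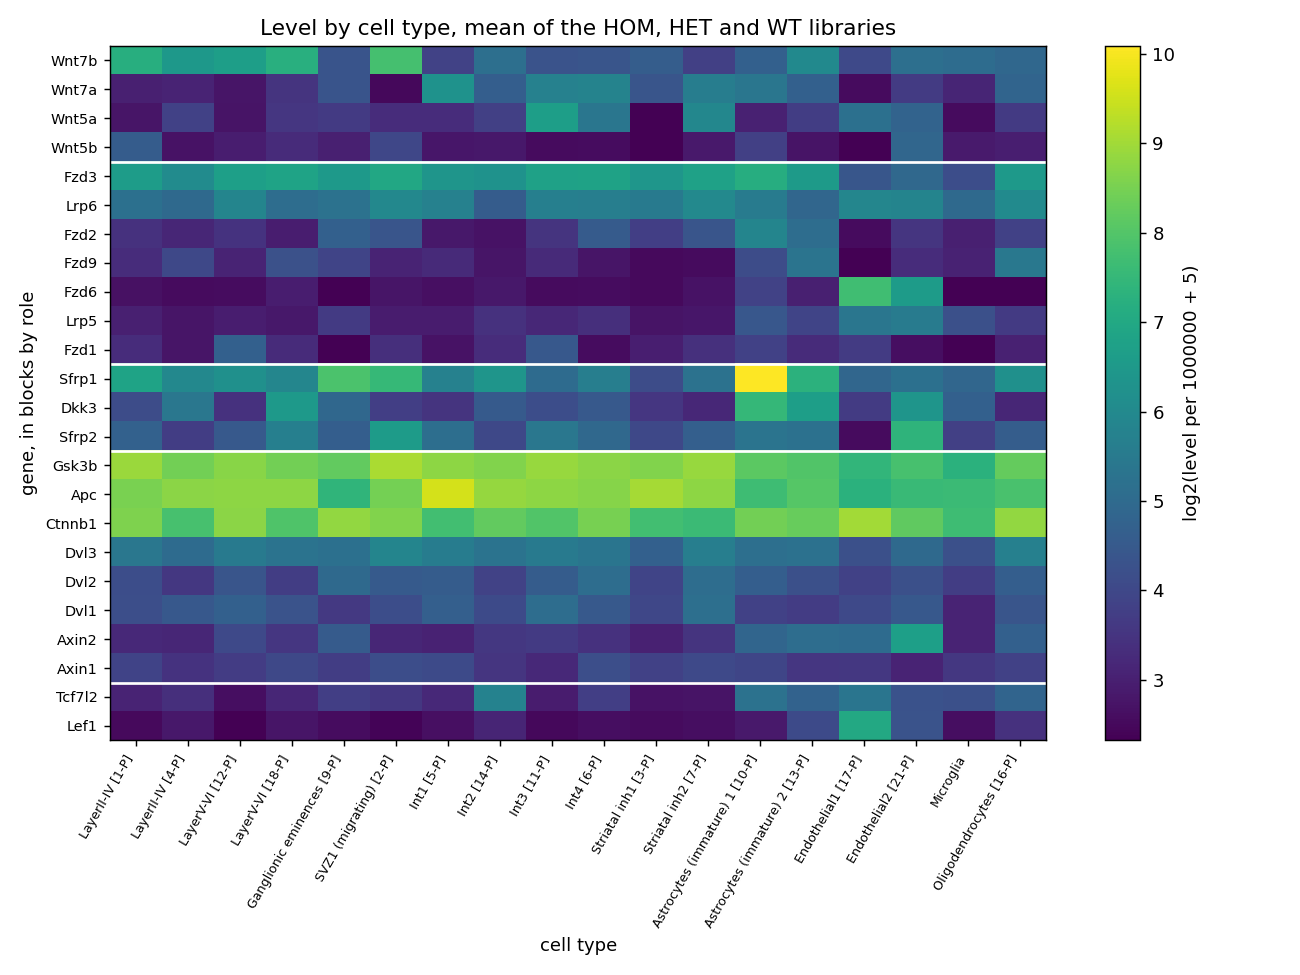
Mean level of the members with a summed value of at least 200, by cell type. Rows are genes in blocks by role (ligands, receptors, secreted modulators, cytoplasmic transducers, nuclear factors), columns are the 18 cell types with at least 100 cells per library, and colour is log2(level per 1000000 + 5), the mean of the HOM, HET and WT libraries. Gsk3b, Apc and Ctnnb1 are bright in nearly every column, while Sfrp1 stands out in Astrocytes (immature) 1 [10-P] and Fzd6 and Lef1 in Endothelial1 [17-P].

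Ligands were divided between excitatory and inhibitory neurons. Wnt7b, a ligand of cortical neurons, was at 306 in HOM, 172 in HET and 169 in WT in SVZ1 (migrating) [2-P], its highest of these 18 types, and at 190, 125 and 108 in LayerII-IV [1-P]. In LayerI [19-P], which has too few WT cells to be among the 18, Wnt7b was at 281 in HOM, 197 in HET and 332 in WT. In Int1 [5-P] it was at 9.6, 8.9 and 10.4. Wnt7a, a closely related ligand, instead had its highest mean in Int1 [5-P], at 79.6 in HOM, 57.7 in HET and 82.9 in WT. In the HET library alone its highest type was Striatal inh2 [7-P]. Wnt7a was at 50.7, 47.7 and 46.1 in Int3 [11-P]. Wnt5a, known for signalling that does not need β-catenin, was at 71.4 in HOM, 111 in HET and 107 in WT in Int3 [11-P] and at 47.1, 72.4 and 48.0 in Striatal inh2 [7-P]. Wnt3 was highest in Striatal inh2 [7-P] in every library, at 24.7 in HOM, 26.1 in HET and 39.2 in WT. Wnt5b, in LayerII-IV [1-P], was at 21.8 in HOM, 18.6 in HET and 16.5 in WT.

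Receptors differed in breadth. Fzd3, which guides growing axons, was spread over neurons and glia, from 43.6 in HOM, 66.8 in HET and 74.9 in WT in LayerII-IV [4-P] to 125, 114 and 176 in Astrocytes (immature) 1 [10-P], and at 10.6, 13.4 and 14.9 in Microglia. Fzd2 was highest in Astrocytes (immature) 1 [10-P], at 24.0 in HOM, 61.9 in HET and 73.0 in WT. Fzd9 had its highest mean in Oligodendrocytes [16-P], at 25.2, 42.2 and 47.7. Fzd4, a receptor needed for brain and retinal vessels, and Fzd6 were highest in Endothelial1 [17-P], Fzd6 at 216 in HOM, 159 in HET and 231 in WT, and Fzd4 at 67.0, 65.0 and 53.8.

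Secreted modulators were strongest in glia and vessel-associated cells. Sfrp1, which binds Wnt proteins outside the cell, was at 911 in HOM, 1098 in HET and 1247 in WT in Astrocytes (immature) 1 [10-P], and no other type came near it, with a mean of 231 in Ganglionic eminences [9-P] next. Dkk3 was also highest there, at 168, 169 and 191. Meningeal fibroblast markers in Astrocytes (immature) 1 [10-P] summed to 3074 in HOM, 22.8 in HET and 44.6 in WT, with 3, 2 and 2 of 5 above 0, and their part in the lower HOM levels of Sfrp1 and Fzd2 there was not tested. Sfrp2 was highest in Endothelial2 [21-P], at 133 in HOM, 190 in HET and 161 in WT, as was Axin2, a feedback target of the pathway, at 68.3, 134 and 95.4.

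Cytoplasmic transducers were found in every type. Gsk3b, the kinase that marks β-catenin, was highest in SVZ1 (migrating) [2-P], at 550 in HOM, 557 in HET and 542 in WT, and the libraries were nearly level there. Apc, a scaffold of the destruction complex, was highest in Int1 [5-P], at 636 in HOM, 733 in HET and 911 in WT, with a mean of 528 in Striatal inh1 [3-P] next. Ctnnb1 was at 499 in HOM, 584.6 in HET and 452 in WT in Endothelial1 [17-P]. The Dishevelled genes were lower: Dvl3 was at 53.1 in HOM, 50.01 in HET and 56.7 in WT in SVZ1 (migrating) [2-P], while Dvl1 was at 28.0, 26.1 and 39.2 and Dvl2 at 31.4, 26.1 and 30.5 in Striatal inh2 [7-P]. The co-receptor Lrp6 had its highest mean in Oligodendrocytes [16-P], at 54.8 in HOM, 58.3 in HET and 68.2 in WT, but each library had a different highest type for it.

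The label of Endothelial2 [21-P] is not borne out by its markers. The endothelial markers Cldn5, Pecam1 and Flt1 summed to 101 in HOM, 64.7 in HET and 58.7 in WT there, against 5762, 5918 and 6395 in Endothelial1 [17-P]. The mural cell markers Rgs5, Pdgfrb and Kcnj8 summed to 7414, 11120 and 10303 in Endothelial2 [21-P]. The meningeal fibroblast markers (Col1a1, Col1a2, Dcn, Lum and Ptgds) summed there to 18981 in HOM with 5 of 5 above 0, 302 in HET with 4 above 0 and 227 in WT with 1 above 0. Members that differ between libraries in this type stand beside that difference, and its part in them was not tested. Wnt6 was above 0 in 11 of 260 HOM cells of it, in 0 of 201 HET cells, which allows a share of up to 1.49%, and in 0 of 114 WT cells, which allows up to 2.63%. These limits, 3 counts of the cells, are for cells with a detected value and not for cells expressing the gene. Axin2 had a log2 ratio of -0.97 in HOM against HET.

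Against WT, the values of pathway members were more often lower than higher in the mutant libraries, and a few members gave many of them. A member was compared in a cell type where its summed value over both libraries reached 50, and a ratio beyond 1.5-fold was counted. In HOM against WT, 24 members gave 134 values over 18 types, of which 5 were beyond 1.5-fold higher and 32 beyond it lower, 3.73% and 23.9%. Over all genes 7.29% of 78484 values were higher and 13.3% lower. The median log2 ratio of the members was -0.30, and that of all genes -0.06. Fzd3 gave 11 of the 32 lower values, Lrp6 5 and Sfrp1 4. Wnt7b gave 3 of the 5 higher ones and Sfrp2 2. The shares therefore weigh some members more than others. HET against WT gave 21 members with 132 values, 3 higher (2.27%) and 14 lower (10.6%), beside 5.14% and 8.26% of all genes, with medians of -0.21 and -0.01. Between the mutants, HOM against HET, 22 members gave 136 values over 19 types, 11 higher and 11 lower (8.09% each), beside 4.58% and 6.84% of all genes, with medians of -0.04 and -0.03. Of the 14 lower values in HET against WT, Sfrp1 gave 4, Fzd3 and Ctnnb1 3 each, Lrp6 2, and Apc and Dkk3 1 each. HOM against WT and HET against WT share the WT library.

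The member differences against WT moved with transcript length. After the median trend of all genes over transcript length was taken out, the median of the members in HOM against WT was -0.04, with 11.9% of values beyond 1.5-fold lower and 5.97% higher, beside 8.38% and 7.74% of all genes. For HET against WT the median was then -0.09, with 6.06% of values beyond 1.5-fold lower and 3.03% higher, beside 5.93% and 5.03% of all genes. The longest transcripts of Fzd3, Apc and Lrp6 measure 12734, 12811 and 9368 bases in GENCODE M21, beside a median of 3038 over all genes.

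Of members measured in at least 10 types, 1 of 6 was below WT in every type in HOM, which was Fzd3, beside 7.65% of all genes, and 0 were above in every type, beside 4.96%. In HET against WT 0 of 5 were lower in every type, beside 3.78% of all genes, and 0 were higher, beside 2.95%. In HOM against HET 0 of 5 were lower in every type, beside 2.31%, and 0 were higher, beside 1.56%.

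Fzd3 was below WT in all 14 types measured in HOM, with log2 ratios from -1.22 in LayerV-VI [12-P] to -0.42 in Int3 [11-P], and beyond 1.5-fold in 11 of them. In SVZ1 (migrating) [2-P] the level was 80.7 in HOM, 118 in HET and 161 in WT. In LayerV-VI [12-P] it was 60.7 in HOM, 97.1 in HET and 141 in WT. Against WT it was lower in HET in 14 of 15 types, from -0.88 in Oligodendrocytes [16-P], and at 0.13 in Striatal inh1 [3-P]. In HOM against HET it was lower in 14 of 15 types, with 0.13 in Astrocytes (immature) 1 [10-P]. With the length trend taken out, its median over types in HOM against WT was -0.43 in place of -0.79, with 4 types beyond 1.5-fold, and 13 of 14 types below 0. When only male cells, those holding a Y-linked transcript, were kept, Fzd3 reached the minimum in no type for HOM against WT, and in HOM against HET it was lower in 2 of 2 types with a median of -0.27.

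In cortical excitatory types the order HOM below HET below WT for Fzd3 also held within bands of depth. In layer II to VI and SVZ1 cells with 800 to 2000 molecules, where the deposited correction left most detected genes in place, 8.37% of HOM cells, 10.3% of HET cells and 14.8% of WT cells were above 0 (exact 95% intervals 6.95 to 9.97, 8.91 to 11.9 and 13.0 to 16.7, counting error only). Read as levels in place of shares, the same order stood in all 5 bands of these cells and in 4 of 5 bands of all other types together. It stood in 0 of 5 in Endothelial1 [17-P], where at most 3 cells a library and band were above 0. In LayerII-IV [1-P] alone the shares at this depth were 8% in HOM, 11.1% in HET and 16.4% in WT, at median depths of 1124, 1108 and 1130 molecules, while in SVZ1 (migrating) [2-P] they were 12.4%, 10.0% and 19.4%, so that HOM and HET changed places there. In the same depth range 2.17% of HOM, 1.90% of HET and 1.20% of WT Microglia were above 0 for Fzd3, at median depths of 994.5, 1035 and 1111 molecules. Other members shared this order of levels, HOM below HET below WT. Apc and Dvl1 had it in 4 of 5 bands of the excitatory cells, and Sfrp1 and Dvl3 in 4 of 5 of all other types. It was not counted over all genes, and the length trend was not taken out of these levels.

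**Figure D2:**
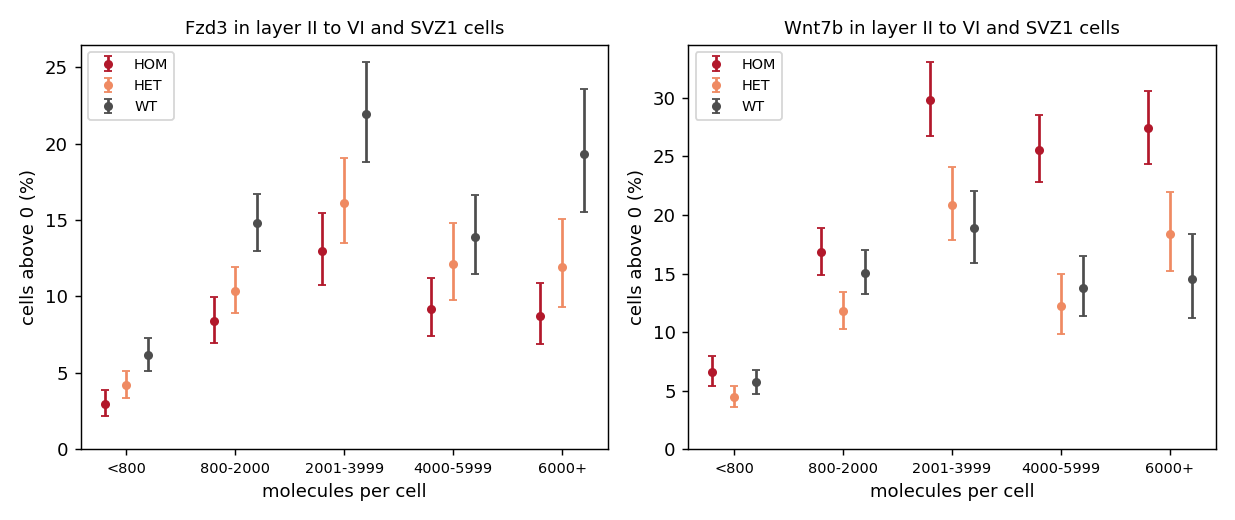
Share of layer II to VI and SVZ1 cells above 0 for Fzd3 (left) and Wnt7b (right), in percent, by molecules per cell. Points are the HOM, HET and WT libraries and bars are exact 95% intervals that cover counting error only. Read as levels, which are not plotted here, Fzd3 was lower in HOM than in HET and lower in HET than in WT in all 5 bands. The Wnt7b level was higher in HOM than in HET and WT in all 5.

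Wnt7b went the other way in HOM. Its log2 ratio in HOM against WT was 0.85 in SVZ1 (migrating) [2-P], 0.81 in LayerII-IV [1-P], 0.75 in LayerII-IV [4-P] and 0.42 in LayerV-VI [18-P], but -0.31 in LayerV-VI [12-P], at levels of 86.6 in HOM and 108 in WT. Its HET against WT values lay between -0.49 and 0.21. When only cells holding a Y-linked transcript were kept, its mean over the layer and SVZ1 types measured was 1.27 in HOM against WT over 3 types, in place of 0.50 over 5, and in HET against WT it was 1.90 in the 1 type measured, in place of a mean of -0.07. In HOM against HET it was beyond 1.5-fold higher in 5 of 7 types, from -0.14 in LayerV-VI [12-P] to 0.90 in LayerV-VI [18-P]. The difference was smaller in cells of 800 to 2000 molecules, where the layer and SVZ1 level was 176 in HOM, 118 in HET and 148 in WT, than in the band from 4000 to below 6000 molecules, at 258, 114 and 135. In LayerII-IV [1-P] cells of 800 to 2000 molecules 16.9% of HOM, 14.5% of HET and 15.9% of WT cells were above 0, and their intervals overlapped. In Microglia of that depth the shares for Wnt7b were 2.17%, 2.86% and 1.20%.

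**Figure D3:**
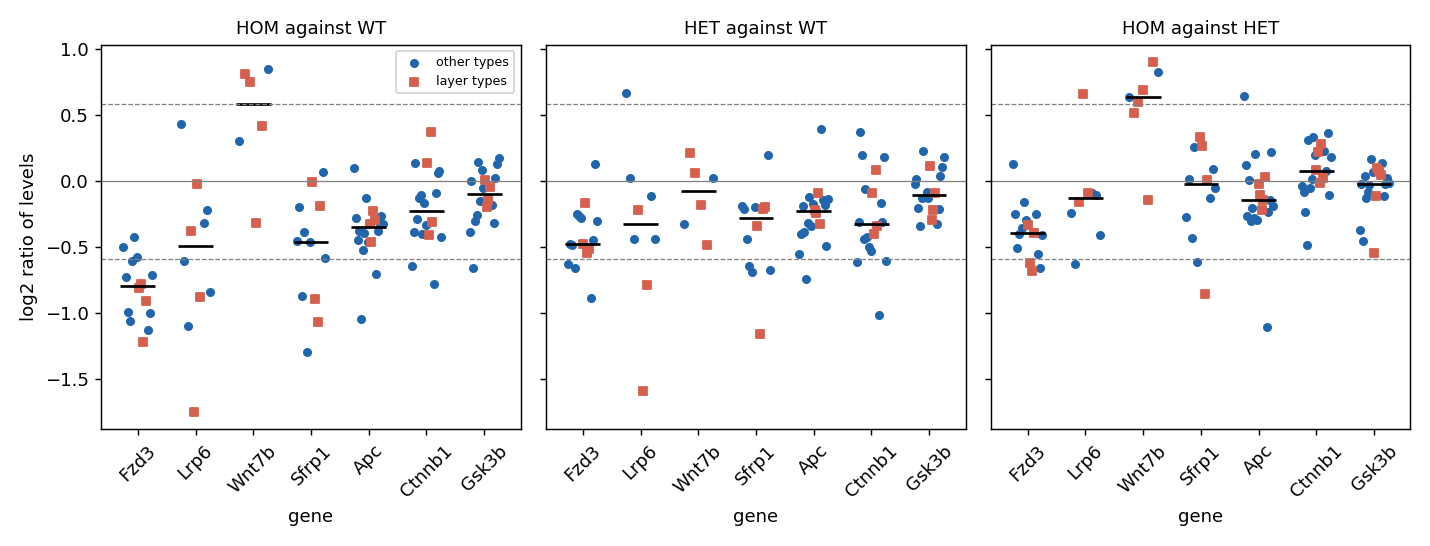
log2 ratio of levels for 7 members in HOM against WT, HET against WT and HOM against HET. Each point is a cell type, squares are the layer types, black bars are medians over types, and dashed lines mark 1.5-fold. Fzd3 lies below 0 in all 14 types in HOM against WT, and Wnt7b is the member with most types beyond 1.5-fold higher, 3 of 6.

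The other receptors, modulators and transducers differed in direction. In HOM, Ctnnb1 was above WT in 5 of 18 types, Gsk3b in 6 of 18 and Sfrp2 in 5 of 6, and in HET in 4 of 18, 6 of 18 and 4 of 5. In cells of at least 2000 molecules Ctnnb1 was below WT in only 6 of 14 types in HOM, with a median of 0.03. Its median in HOM against HET was then 0.34, in place of 0.08. The co-receptor Lrp6 was lowest in LayerII-IV [4-P], at 14.5 in HOM, 16.2 in HET and 48.7 in WT, log2 ratios of -1.75 and -1.59, and was above WT in Astrocytes (immature) 2 [13-P], at 25.5 in HOM, 30.1 in HET and 18.9 in WT. In Int4 [6-P] Lrp6 was at -1.09 in HOM against WT. Sfrp1 was below WT in 11 of 12 types in HOM, with -1.30 in Int2 [14-P] and -1.07 in LayerV-VI [12-P], and in 11 of 12 in HET, with -1.15 in LayerII-IV [4-P]. Sfrp2 differed from it, with 1.54 in Int1 [5-P] in HOM against WT, at levels of 42.2 in HOM and 14.5 in WT from summed values of 44 and 7, and 0.89 in LayerV-VI [18-P]. Dkk3 was at 1.00 in HOM against HET in LayerI [19-P].

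Apc was below WT in 17 of 18 types in HOM and in 17 of 18 in HET, with medians over types of -0.35 and -0.23, which became -0.04 and 0.01 with the length trend taken out. Its lowest value in HOM against WT was -1.04, in Ganglionic eminences [9-P], at levels of 114 in HOM and 235 in WT. In Microglia it was at -1.10 in HOM against HET. Ctnnb1 was lowest in Microglia, at 169 in HOM, 144 in HET and 291 in WT, log2 ratios of -0.78 and -1.01. Gsk3b was close to WT in the layer types, with means over them of -0.09 in HOM and -0.12 in HET, and was lowest in Endothelial1 [17-P] in HOM, at -0.65. With the length trend taken out its medians over types turned to 0.31 in HOM and 0.14 in HET. Dvl3 lay below WT in all 6 types measured in HOM and all 8 in HET, though its median in HOM against WT was 0.03 in cells of at least 2000 molecules. Dvl2 was at 1.21 in HOM against HET in Astrocytes (immature) 2 [13-P], from summed values of 50 and 16, and at 0.15 in HOM against WT there. Among ligands, Wnt7a was at 0.99 in HET against WT in Striatal inh2 [7-P], and Wnt5a was lower in HOM against HET in both types measured, at -0.64 and -0.62.

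The 4 layer types were also read together. In HOM 4 of 7 members measured in all 4 were below WT in each (57.1%), beside 25.6% of all genes, and in HET 3 of 6, beside 23.8%. The 4 were Fzd3, Apc, Lrp6 and Sfrp1, and the 3 were Fzd3, Apc and Sfrp1. These layer counts were not repeated with the length trend taken out. Over all types measured in HOM against WT, Fzd3 was then below 0 in 13 of 14, Apc in 10 of 18, Lrp6 in 7 of 10 and Sfrp1 in 8 of 12. Between the mutants only Fzd3, 1 of 7, was lower in HOM in each (14.3%), beside 15.2% of all genes. No member was higher in all 4 in any of these comparisons. The lowest mean over the layer types was that of Fzd3 in HOM, at -0.93, and that of Sfrp1 in HET, at -0.47, with Fzd3 at -0.42.

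The nuclear factors Lef1 and Tcf7 were highest in endothelial cells in every library. Lef1, which carries β-catenin to its targets and is known in brain vessels, was at 67.0 in HOM, 152 in HET and 156 in WT in Endothelial1 [17-P], log2 ratios of -1.22 in HOM against WT, -1.18 in HOM against HET and -0.04 in HET against WT. It was above 0 in 25 of 316 HOM, 40 of 226 HET and 25 of 149 WT cells, 7.91% (interval 5.19 to 11.5), 17.7% (13.0 to 23.3) and 16.8% (11.2 to 23.8). In cells of 800 to 2000 molecules only 5 of 91 HOM, 7 of 67 HET and 4 of 40 WT cells were above 0, and their intervals overlapped, at 5.49%, 10.4% and 10.0%. Mural cell markers in Endothelial1 [17-P] summed to 96.7 in HOM, 162 in HET and 307 in WT, meningeal fibroblast markers to 129, 3.61 and 0 with 3, 1 and 0 of 5 above 0, and their part in the difference was not tested. The median depth of these cells was 1722 molecules in HOM, 1226.5 in HET and 1408 in WT. Tcf7 was at 79.4 in HOM, 86.6 in HET and 135 in WT there. Lef1 was also measured in Astrocytes (immature) 2 [13-P] in HOM against WT, with a log2 ratio of -0.59. Tcf7l2 in Int2 [14-P] was at 34.6 in HOM, 23.1 in HET and 89.7 in WT, from 7 of 611, 5 of 488 and 10 of 299 cells above 0.

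**Figure D4:**
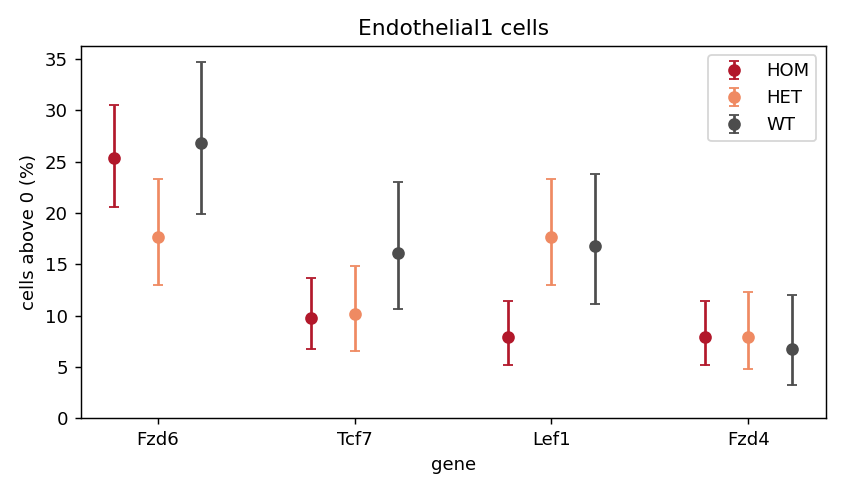
Share of Endothelial1 [17-P] cells above 0, in percent, for Fzd6, Tcf7, Lef1 and Fzd4. Points are the HOM, HET and WT libraries and bars are exact 95% intervals for counting error only. The HOM point of Lef1, at 7.91%, lies under those of HET and WT, while the Fzd4 points lie within each other's bars.

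Promoter sequence is shown for Lef1, Tcf7 and Tcf7l2, the nuclear factors with a measured difference, since MYT1L is known to bind the letters AAAGTT and the TCF and LEF factors the letters CTTTGA. Each line is the 250 bases before a start site in RefSeq (build GRCm38.p6), 5′ to 3′ in the direction of the gene, with any match to AAAGTT or its reverse complement in capitals and no match to CTTTGA on either strand. Where a gene had several start sites the window with most matches was taken. The Lef1 window is chr3:131112541-131112790 on the plus strand (1 of 4 entries), that of Tcf7 chr11:52282596-52282845 on the minus strand (1 of 2) and that of Tcf7l2 chr19:55895071-55895320 on the plus strand (1 of 2).
Lef1: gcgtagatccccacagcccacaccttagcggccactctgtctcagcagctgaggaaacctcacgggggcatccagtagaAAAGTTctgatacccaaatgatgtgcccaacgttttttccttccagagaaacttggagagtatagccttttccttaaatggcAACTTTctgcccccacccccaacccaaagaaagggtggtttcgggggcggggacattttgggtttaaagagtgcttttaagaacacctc
Tcf7: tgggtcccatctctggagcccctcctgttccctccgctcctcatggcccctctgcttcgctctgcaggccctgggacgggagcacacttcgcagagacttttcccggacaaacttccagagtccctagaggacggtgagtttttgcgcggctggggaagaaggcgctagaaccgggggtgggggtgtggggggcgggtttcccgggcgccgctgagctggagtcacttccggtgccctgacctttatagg
Tcf7l2: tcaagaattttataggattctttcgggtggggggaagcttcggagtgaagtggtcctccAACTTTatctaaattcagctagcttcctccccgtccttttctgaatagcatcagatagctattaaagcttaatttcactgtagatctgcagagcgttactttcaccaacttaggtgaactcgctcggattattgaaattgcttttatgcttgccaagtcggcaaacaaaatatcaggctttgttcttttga
Lef1 held 2 matches, 171 and 89 bases before the start, Tcf7l2 held 1 at 191 and Tcf7 held 0. AAAGTT stood in 12.4% of 32851 such windows over all genes and in 7 of the 40 windows of the 31 members with an entry, those of Fzd10, Lef1, Tcf7l1, Tcf7l2, Wnt2 and Wnt5b. CTTTGA stood in 13.8% of all windows and in 6 of the 40, with Lef1 counted through another entry. AAAGTT and TCAAAG, the reverse complement of CTTTGA, share letters and can overlap. A match is a description of letters only.

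The remaining members were low. Lrp5, the other co-receptor, was at 35.8 in HOM, 38.8 in HET and 51.4 in WT in Endothelial2 [21-P] and at 17.4, 43.3 and 48.5 in Endothelial1 [17-P]. Dkk2, a secreted antagonist, was highest in Endothelial2 [21-P] in every library, at 42.3 in HOM, 25.9 in HET and 36.7 in WT, where the meningeal and mural marker values above apply. Axin1, the scaffold of the destruction complex, had its highest mean in Int4 [6-P], at 8.81 in HOM, 10.0 in HET and 20.4 in WT. Fzd1 was at 27.3, 11.0 and 24.6 in LayerV-VI [12-P] and Fzd8 at 9.59, 32.6 and 22.3 in Astrocytes (immature) 1 [10-P]. Sfrp5 was at 14.4, 16.3 and 20.3 in that astrocyte type and Sfrp4 at 8.81, 6.67 and 9.51 in Int4 [6-P]. Tcf7l1, Fzd7 and Dkkl1 had summed values of 118, 91 and 52 over all cells. Fzd10os lies antisense to Fzd10, and both were under 50.

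Of 69 other pathway genes found in the table from 71 listed, 48 were measured in HOM against WT, where 16 of 347 values were beyond 1.5-fold higher and 90 lower, with a median of -0.26, beside 7.29% and 13.3% of all genes. For HET against WT 12 of 334 were higher and 66 lower, with a median of -0.18, beside 5.14% and 8.26% of all genes. Between the mutants 24 of 359 were higher in HOM and 36 lower, with a median of -0.05, beside 4.58% and 6.84% of all genes. The transcript length trend was not taken out for these other pathway genes. Tle4, a co-repressor that binds Tcf7 factors, was below WT in 9 of 9 types in HOM, with a median of -1.08, and at -0.48 in HET against WT. Cxxc4, an inhibitor of Dvl, was below WT in 7 of 7 types in HOM, with a median of -1.04. The planar polarity genes Celsr2 and Vangl2 were below WT in all 8 and all 9 types measured, in HOM at medians of -0.81 and -0.64 and in HET at -0.75 and -0.59. Listed target genes of the pathway had a median of 0.20 in both mutants against WT. In HOM 9 of 46 values were higher and 4 lower, where the shares over all genes were again 7.29% and 13.3%. In HET 5 of 39 were higher and 3 lower, beside 5.14% and 8.26%. Id2 alone gave 15 of the 46 HOM values. Ccnd1, Myc, Sp5, Notum, Nkd1 and Id2 had positive medians in HOM, while Sox9 was at -0.06 and Tnfrsf19 at -0.14. Axin2, a target outside this list, was at -0.27 in HOM against WT in Astrocytes (immature) 2 [13-P].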

How the data were processed

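Per the submitters' processing notes, the authors used Cell Ranger 4.0.0 on the mm10 build and Seurat 4.0. The deposited gene matrix holds whole numbers that the authors corrected for depth, which are treated as a score: the total per cell was 825 to 1952, while the deposited molecule counts per cell ranged from 499 to 17602. No source used here says how this correction was made. The deposited cell table also gives the percent of mitochondrial molecules and, as a fraction, the probability of each transferred cell type. The authors' own comparison tables, which hold fold changes and p-values over cells, were not used. The correction kept the detected genes of shallow cells but not of deep ones: in cells of 4000 to 6000 molecules a median of 2494 detected genes became 761 above 0. Values were summed per library and cell type and divided by their total, giving a level per 1000000. Members and lists were chosen with earlier results of these data known. Members are reported by role, and values are given for those with a summed value of at least 300 over all cells, beyond 1.5-fold the same way in all layer II to VI types, or beyond 2-fold in any type; values of other members were chosen after they were seen. Up to 6 other pathway genes are named by level or median ratio, among those measured in at least 5 types. Pairs at 0 in 1 library were left out of ratios (0 of the members). No source used here says how doublets were treated, and none were called. Intervals of shares are exact Clopper-Pearson 95% intervals, and the limit given for a share of 0 is 3 counts of the cells. Alternatives were other minimums of summed value, cells of 800 to 2000 or of at least 2000 molecules, cells with a Y-linked transcript, types with at least 30 cells, shares of cells in place of levels, cells with an annotation probability of at least 0.9, other scalings and removal of the transcript length trend; depth bands were added after seeing the data. No replicate could be left out, since each genotype is 1 library. Calculations were tested on simulated data. Python 3.11.15, numpy 2.4.6, scipy 1.17.1, pandas 2.3.3 and matplotlib 3.10.9 were used.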

Additional observations from a re-analysis of the deposited data

Results flagged for a closer look

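Under the same comparison, Lrp6 and Apc were beyond 1.5-fold higher in a cell type and beyond it lower in another, and these differences between types were not tested. In HET against WT, Lrp6 had a log2 ratio of 0.67 in Astrocytes (immature) 2 [13-P] and of -1.59 in LayerII-IV [4-P]. In HOM against HET, Lrp6 was at 0.66 in LayerV-VI [12-P] and at -0.63 in Int1 [5-P], and Apc was at 0.65 in Astrocytes (immature) 1 [10-P] and at -1.10 in Microglia.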

How the results depend on the processing

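No paired analysis was possible because the replicate numbers of the samples are sequencing runs of 1 library per genotype; for the same reason no replicate could be left out. The share of member values beyond 1.5-fold and their medians moved with the choice of cells and of the minimum, and the cause was not tested. In HET against WT the share higher, 2.27% as reported, was 6.90% in cells with a Y-linked transcript (12.9% of all genes), 1.33% in cells of at least 2000 molecules (6.30%), 5.61% with a minimum of 20 (9.07%), 0% with 200 (1.88%) and 10.5% with no minimum (12.7% of all genes). The share lower, 10.6%, was 20.7% (8.85% of all genes), 16% (7.34%) and 19.6% (13.5%) under the first 3 of these, 20.6% (15.4%) with no minimum and 6.06% with the length trend removed. In HOM against WT the median of -0.30 was -0.037 with the length trend removed. The share higher, 3.73%, was 1.61% in cells of 800 to 2000 molecules (9.67% of all genes), 8.82% in cells with a Y-linked transcript (16.3%), 10.7% with no minimum (12.3%) and 5.97% with the length trend removed, and the share lower, 23.9%, was 14.7% in cells with a Y-linked transcript (9.37% of all genes), 11.9% with a minimum of 200 (5.69%) and 11.9% with the length trend removed. In HOM against HET the median of -0.04 turned to 0.044 in cells of 800 to 2000 molecules, 0.042 in those with a Y-linked transcript, 0.052 at 2000 molecules or more, 0.018 with a minimum of 200, 0.012 with no minimum and 0.022 with the length trend removed. There the share higher, 8.09%, was 3.28% at 800 to 2000 molecules (5.13% of all genes) and 15.6% with no minimum (11.9%), and the share lower, also 8.09%, was 0% in cells with a Y-linked transcript (6.38%), 14.95% with a minimum of 20 (12.5%), 0% with 200 (1.68%) and 12.9% with no minimum (14.2%). Cells with a Y-linked transcript gave only 29, 34 and 48 member values in HET against WT, HOM against WT and HOM against HET. The number of members with the same highest type in every library, 14 of 23, was 1 of 6 at 800 to 2000 molecules, 4 of 5 with a minimum of 200 and 12 of 23 over types with at least 30 cells, where Wnt7b was highest in LayerI [19-P]. Of the values for single members under the alternatives, 611 lay within the spread between cell types (1 SD, or 1.5-fold where there was 1 type or depth band) of the reported value and 29 did not, among them Fzd3 and Apc in HOM against WT with the length trend removed. Depth limits members under a summed value of 50, for which a level of 0 does not show absence.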
